A study of Mus musculus with 9 samples.

Results

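Retinal blood vessels were followed here through 10 genes, 7 of endothelial cells (Cdh5, Pecam1, Cldn5, Kdr, Flt1, Tie1 and Tek) and 3 of pericytes (Pdgfrb, Rgs5 and Cspg4), in RNA-seq libraries of mouse retinal explants. The genes were taken by symbol from the 55487 genes of the deposited gene count table. Retinas were dissected at postnatal day 28 from C57BL/6J mice with no engineered allele. They spent 48 h in Neurobasal-A whose glucose was 5 mM in both groups, and 2-deoxy-D-glucose was added at 20 mM for 1 group (2-DG, 4 libraries) and left out for the other (control, 5 libraries). After rinsing, the retinas spent a further 1 h in Krebs' Ringer solution. The sclera and the pigment epithelium had been peeled off the retina before culture, per the labels, and the explants had no blood flow. The comparison asked whether 2-DG, which is taken up like glucose and stops glycolysis at its first steps, changed expression of these genes. The labels call the libraries biological replicates of 1 batch but do not say whether they came from separate animals, so the p-values measure the spread between these libraries.

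Endothelial cells line the vessels, and pericytes wrap around the capillaries from outside within a shared basement membrane. VEGF, made by retinal neurons and glia, acts on endothelial cells through the receptor encoded by Kdr, while the receptor encoded by Flt1 binds VEGF tightly with weaker signalling and also exists as a secreted form that traps the ligand. Tek encodes the angiopoietin receptor TIE2, and Tie1 its co-receptor. PDGF-B from the endothelium recruits pericytes through the receptor encoded by Pdgfrb. In the retina these cells together form the inner blood-retina barrier, whose endothelial junctions hold the cadherin of Cdh5 and the claudin of Cldn5.

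The libraries held between 11318087 and 51802230 estimated counts, and 3 counts corresponded to 0.0556 to 0.255 CPM (counts scaled to a common library size, here with TMM), below the lowest value of any of the 10 genes, 2.46 CPM. Libraries of 1 group differed strongly from each other. Control 4, control 5 and 2-DG 4 held the 3 lowest sums of 9 genes of retinal interneurons and ganglion cells, at 1319, 562 and 717 CPM against 1506 to 2439.9 CPM in the other 6 libraries. Of these 9 genes, 1 (Snap25, the most abundant) had all 3 libraries below the other 6 and 1 (Rbpms) had all 3 above, so the order of the sums was not that of each gene. Control 2 had the highest sum of 8 rod photoreceptor genes, 41430 CPM against 4765 to 15715 CPM elsewhere, and 2-DG 3 the highest sum of 8 pigment epithelium genes, 172.9 CPM against 3.14 to 25.7 CPM. Results on the 10 genes are given with and without control 4, control 5 and 2-DG 4, a choice made after seeing the values, and those on other genes with all 9 libraries. In bulk tissue, fewer vessel cells and less RNA per vessel cell cannot be told apart.

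All 10 genes were well above the detection floor in all 9 libraries. Levels per kilobase used the length of all annotated exons of a gene together. For Flt1, Kdr and Pecam1 this was 13504, 9030 and 6228 bases. Their transcripts with the most counts have 6895, 5924 and 3233 bases, so these 3 genes come out lower than by transcript length. The order of genes thus depends on the length chosen. By this measure levels averaged highest for Cldn5 (104.0 CPM per kb over all libraries) and Cdh5 (94.6), the junction genes. Pecam1 followed with 35.9, Tie1 with 19.6, Rgs5 with 17.2, Tek with 12.03, Pdgfrb with 10.4, Kdr with 10.06 and Flt1 with 8.31 CPM per kb. Cspg4, the gene of the proteoglycan NG2, was lowest at 0.601 CPM per kb. The ranges of neighbours in this order overlapped, with the exception of Cspg4, whose highest library (1.46 CPM per kb) lay below the lowest library of each other gene (2.81 for Tek). The order differed between the groups: Cldn5 led in control explants (109.8 CPM per kb against 79.4 for Cdh5) and Cdh5 in 2-DG explants (113.6 against 96.8), and Tek was below Flt1 in control explants (7.24 against 8.38) and above Rgs5 in 2-DG explants (18.03 against 15.5).

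No gene of the set passed the threshold of an adjusted p of 0.05 in edgeR's test over 21049 genes, where 0 genes of all those tested did (0%) and 1526 had an unadjusted p under 0.05. By DESeq2's Wald test 284 genes of all those tested passed (1.36%) and by limma-voom with library weights 1222 (5.81%), again without any of the 10. By direction, 6 genes were higher and 4 lower in 2-DG on average, with a median log2 fold change of 0.30 (0.52 for the endothelial and 0.07 for the pericyte genes), beside −0.01 over all genes tested. At an unadjusted p under 0.05 only Tek was found, 1 of 10, where 7.25% of all genes passed in either direction, 2.42% with the higher value in 2-DG and 4.83% with the lower. The groups overlapped in all 10 genes. Across all genes tested, 2.93% had groups that did not overlap.

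**Figure D1:**
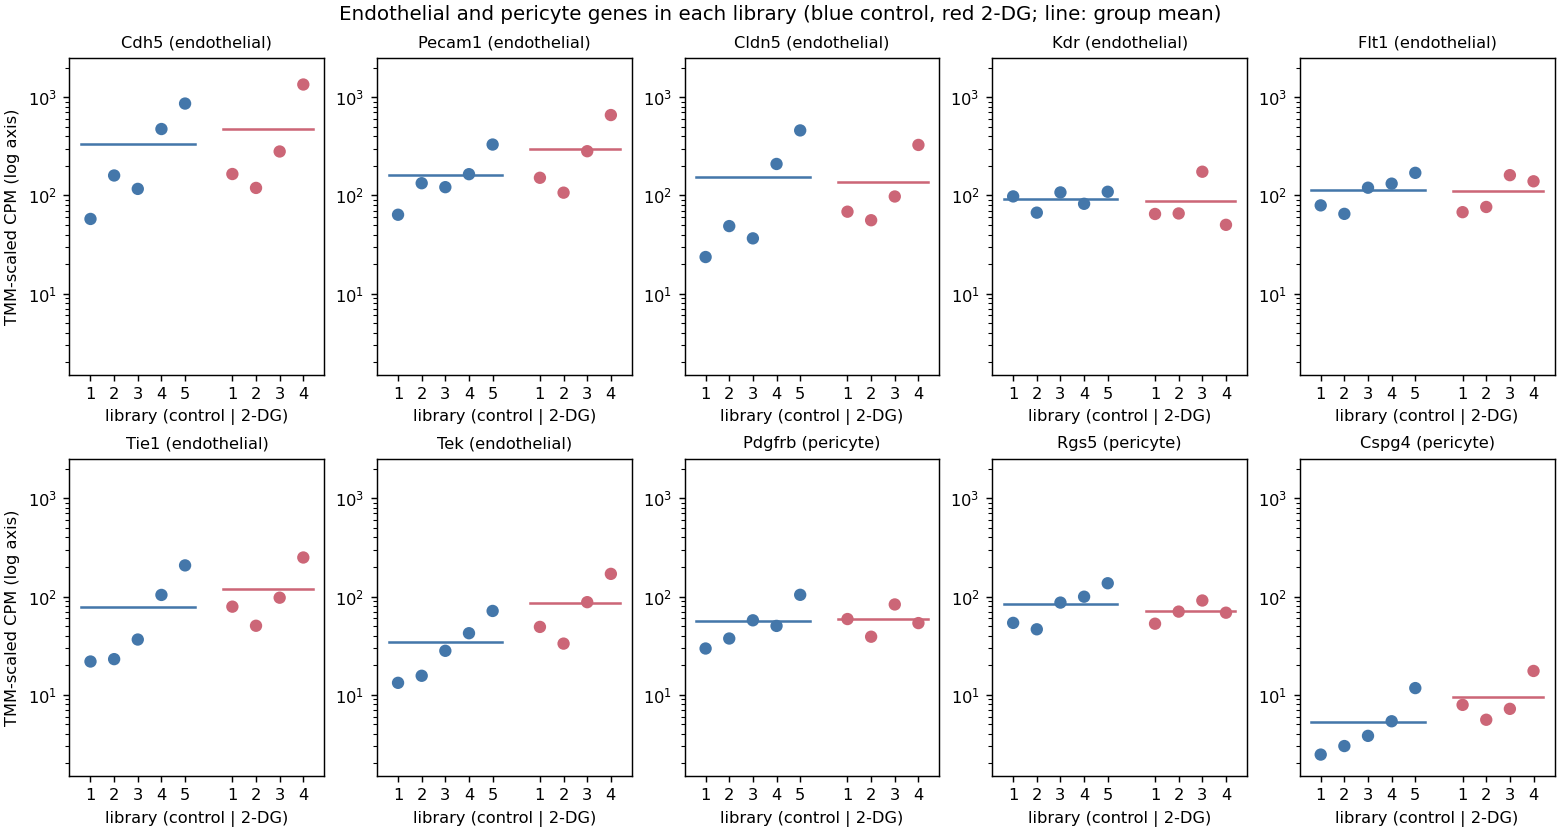
Expression of the 10 genes in each library (points, TMM-scaled CPM on a log axis, the same range in every panel) with the mean of each group as a line. Cdh5, Cldn5, Tie1, Pecam1 and Tek spread over 10.3-fold to 23.3-fold between libraries, whereas Kdr, Flt1, Rgs5 and Pdgfrb stay within 2.61-fold to 3.52-fold.

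Cdh5 encodes VE-cadherin, the adhesion protein of endothelial junctions (ENSMUSG00000031871, GRCm38 chromosome 8, 104101625 to 104144511). Its level was 57.6, 159.6, 117, 474 and 861 CPM in control libraries 1 to 5 and 165, 119, 280.1 and 1346 CPM in 2-DG libraries 1 to 4. The highest library thus held 23.3 times the lowest, and both groups had libraries at either end. Control explants averaged 334 ± 336 CPM (SD, n = 5), 2-DG explants 478 ± 583 CPM (SD, n = 4). The log2 fold change, 2-DG over control, was 0.52 ± 0.88 (standard error), at an adjusted p of 0.905. Without 2-DG 4 the direction turned, to a log2 fold change of −0.83. The antisense gene Gm29682 overlaps Cdh5 on the other strand and shares 0 exon bases with it.

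Cldn5 encodes the most abundant claudin of brain and retinal endothelium, a sealing protein of the tight junction (ENSMUSG00000041378, chromosome 16, 18776847 to 18778262). It was measured at 23.6, 48.8, 36.6, 209 and 459 CPM in control and at 68.3, 55.9, 97.6 and 327 CPM in 2-DG libraries. As for Cdh5, the 3 highest values lay in control 4, control 5 and 2-DG 4. The group means of 155 ± 186 (SD, n = 5) and 137 ± 128 CPM (SD, n = 4) gave a log2 fold change of −0.18 ± 0.88 (standard error, adjusted p = 0.969). Without those 3 libraries it was 0.98 in the other direction, at an adjusted p of 0.693.

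Pecam1, the gene of the adhesion molecule CD31 (ENSMUSG00000020717, chromosome 11, 106654217 to 106750628), measured 63.6, 133, 121, 165 and 329.6 CPM in control and 151, 107, 282 and 658 CPM in 2-DG libraries. Its order of libraries was close to that of Cdh5 with a narrower range, 10.3-fold. On the log2 scale 2-DG explants were 0.88 ± 0.57 (standard error) higher, at an adjusted p of 0.775.

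The angiopoietin receptor pair was next. Tek (ENSMUSG00000006386, chromosome 4, 94739289 to 94874976) was found at 13.2, 15.6, 28.02, 42.3 and 71.3 CPM in control and at 49.1, 33.2, 87.6 and 170.1 CPM in 2-DG libraries. All 4 2-DG libraries exceeded control 1, 2 and 3, and 3 of 4 exceeded the control mean, but control 4 and control 5 lay among them. The means were 34.1 ± 23.8 CPM (SD, n = 5) and 85.0 ± 61.2 CPM (SD, n = 4). The log2 fold change of Tek was 1.32 ± 0.57 (standard error). The p-value from edgeR of 0.0437 became 0.689 after adjustment over all genes. Tek kept the higher mean in 2-DG explants when any 1 library was left out (log2 fold change 0.73 to 1.77) and without control 4, control 5 and 2-DG 4 (1.55, adjusted p = 0.693).

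Tie1 (ENSMUSG00000033191, chromosome 4, 118471191 to 118490061) was measured at 21.8, 23.1, 36.5, 104 and 207 CPM in control and at 78.9, 50.4, 97.3 and 249.6 CPM in 2-DG libraries. Here too the 2-DG libraries lay above control 1, 2 and 3 and around control 4 and 5. Its log2 fold change of 0.60 (standard error 0.71, adjusted p = 0.861) grew to 1.45 without control 4, control 5 and 2-DG 4 (adjusted p = 0.691) and was −0.06 without 2-DG 4 alone.

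The VEGF receptor genes varied less between libraries. Kdr (ENSMUSG00000062960, chromosome 5, 75932827 to 75978458) held 97.8, 66.8, 107, 82.2 and 109 CPM in control and 64.8, 65.5, 174 and 50.2 CPM in 2-DG libraries. Its lowest value of all came from 2-DG 4, the library with the highest Cdh5, and its highest from 2-DG 3. The means of 92.6 ± 17.9 (SD, n = 5) and 88.7 ± 57.5 CPM (SD, n = 4) differed by a log2 fold change of −0.06 ± 0.36 (standard error, adjusted p = 0.977). Without 2-DG 3 the log2 fold change of Kdr was −0.62, at an unadjusted p from edgeR of 0.0276 (adjusted p = 0.770).

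Flt1 (ENSMUSG00000029648, chromosome 5, 147561604 to 147726011) had the narrowest range of the set, 2.61-fold, at 79.2, 64.9, 119.9, 132 and 169.8 CPM in control and 67.6, 76.3, 161 and 139 CPM in 2-DG libraries. The difference on the log2 scale was −0.03 ± 0.35 (standard error, adjusted p = 0.990). The sign of both Kdr and Flt1 depended on single libraries: without 2-DG 1 the log2 fold change was 0.07 for Kdr and 0.16 for Flt1.

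Of the pericyte genes, Pdgfrb (ENSMUSG00000024620, chromosome 18, 61045150 to 61085061) measured 29.6, 37.4, 57.3, 50.2 and 104 CPM in control and 59.0, 39.0, 83.0 and 53.7 CPM in 2-DG libraries. Rgs5, a regulator of G protein signalling used as a pericyte marker (ENSMUSG00000026678, chromosome 1, 169655501 to 169695813), measured 53.9, 46.4, 86.7, 99.6 and 136 CPM in control and 52.9, 70.2, 91.1 and 68.4 CPM in 2-DG libraries. Both had their highest value in control 5. Log2 fold changes were 0.07 ± 0.37 (standard error) for Pdgfrb (adjusted p = 0.970) and −0.26 ± 0.32 for Rgs5 (adjusted p = 0.869).

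Cspg4 (ENSMUSG00000032911, chromosome 9, 56865033 to 56899870), also expressed by oligodendrocyte precursors, was the pericyte gene with the largest difference. It was counted at 2.46, 3.01, 3.82, 5.38 and 11.7 CPM in control and at 7.89, 5.57, 7.19 and 17.5 CPM in 2-DG libraries. All 4 2-DG libraries lay above 4 of the 5 control libraries and above the control mean of 5.27 ± 3.76 CPM (SD, n = 5). Cspg4 was higher in 2-DG explants by 0.85 ± 0.52 (standard error) on the log2 scale (adjusted p = 0.767). Of the precursor genes, Olig1, Olig2 and Sox10 were at or near 0, at no more than 0.315 CPM in any library, whereas Pdgfra was at 1.44 to 22.1 CPM, highest in 2-DG 3 (log2 fold change 0.73, adjusted p = 0.838). Their part in the Cspg4 values was not tested.

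**Figure D2:**
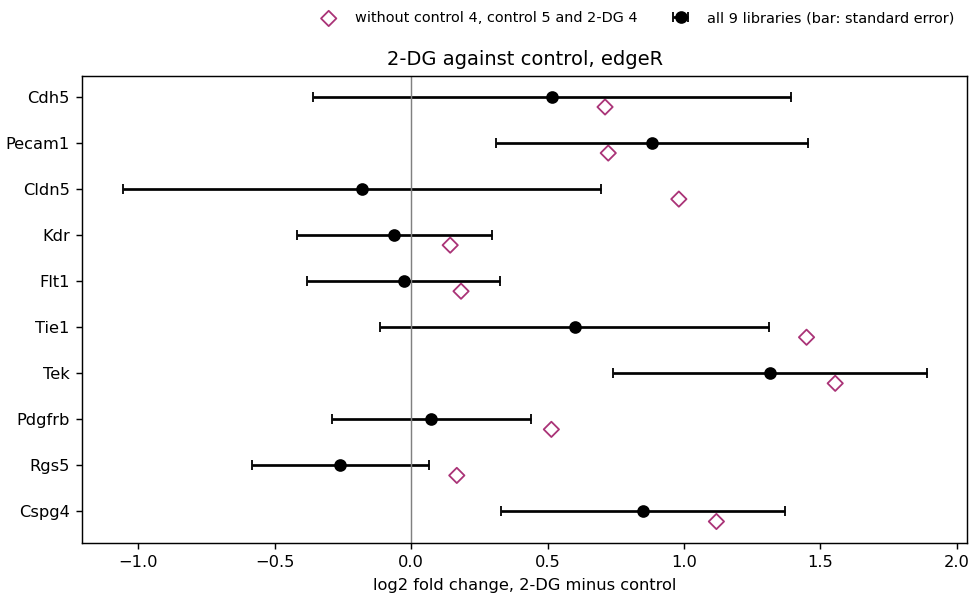
Log2 fold changes of 2-DG against control (edgeR) for the 10 genes, with standard errors as bars for all 9 libraries (filled) and without control 4, control 5 and 2-DG 4 (open, no error drawn). The filled points run from −0.26 for Rgs5 to 1.32 for Tek, and all 10 open points lie above 0.

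Leaving out control 4, control 5 and 2-DG 4 placed all 10 genes higher in 2-DG explants, from 0.14 for Kdr to 1.55 for Tek, in place of 6 of 10. Of the 10, 4 then had an unadjusted p under 0.05 (Tie1, Tek, Cspg4 and Cldn5), beside 6.87% of all genes tested in that comparison. None passed after adjustment, and 3 libraries against 3 remained. Whether the low interneuron sums of the 3 libraries bear on these values was not tested. With 2 surrogate variables estimated from all genes as covariates, Tek (log2 fold change 1.48, adjusted p = 0.0358) and Cspg4 (1.03, adjusted p = 0.0475) passed the threshold, as did 725 of all genes tested (3.44%).

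Across libraries, irrespective of treatment, 6 of these genes rose and fell together. Pearson's r of log2(CPM + 0.5) over the 9 libraries had a median of 0.69 over the 45 pairs, and 39 pairs were positive. By the exact permutation test over all pairings, 17 pairs passed an adjusted p of 0.05 (adjusted over 45), and 16 by Spearman's rho. How many pairs of other genes would pass was not counted. The libraries differed in depth and in the marker sums of other cells, so r describes these 9 libraries.

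Cdh5, Cldn5, Pecam1, Tie1 and Tek formed the tightest group. All 10 of their pairs passed, with r of 0.80 to 0.97 and a median of 0.93. The closest pair was Cdh5 and Cldn5 (r = 0.97, exact permutation adjusted p = 0.00237, rho = 0.97, adjusted p = 0.00248). Without control 5 and 2-DG 4, the 2 libraries farthest from the median of Cdh5, its r remained 0.97 (exact permutation p = 0.00119, adjusted p = 0.0536). In the 6 libraries without control 4, control 5 and 2-DG 4, the median r of the 10 pairs was 0.87, and the lowest was 0.74. Cdh5 thus went with 4 of the other 6 endothelial genes, over a wider range than Pecam1, Tie1 and Tek. Cspg4 went with the same genes, at r of 0.85 to 0.96 with each of the 5, and all 5 pairs passed. Genes outside the set were as close: 0.19% of all genes tested had a higher r with Cdh5 than Cldn5 had. The share was 0.72% for Pecam1, 0.96% for Tie1, 3.71% for Tek and 2.83% for Cspg4.

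Kdr was the gene that stood apart. Its r with Cdh5, Cldn5, Pecam1, Tie1 and Tek lay between −0.16 and −0.03 (exact permutation adjusted p of 0.755 or more), and 53.1% to 64.8% of all genes tested had a higher r with Kdr than these genes had. In the 6 libraries the same 5 values were positive, with a median of 0.32. Kdr was nearer to Rgs5 (r = 0.52, exact permutation p = 0.153), Flt1 (r = 0.50, exact permutation p = 0.165) and Pdgfrb (r = 0.47, exact permutation p = 0.198), none of which passed. In the 6 libraries its r with Flt1 was 0.94 (exact permutation p = 0.00556, not adjusted).

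Flt1, Rgs5 and Pdgfrb followed a course between these. Flt1 and Rgs5 correlated with r = 0.87 (rho = 0.83, exact permutation adjusted p = 0.0108 and 0.0266), Rgs5 and Pdgfrb with r = 0.76 (rho = 0.57, adjusted p = 0.0492 and 0.175 by the exact permutation test). Flt1 reached r of 0.68 to 0.72 with Cdh5, Cldn5, Pecam1, Tie1 and Tek, none of which passed. Once the 2 farthest libraries were left out of each pair, 0 of 45 pairs passed after adjustment, and 0 did in the 6 libraries.

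**Figure D3:**
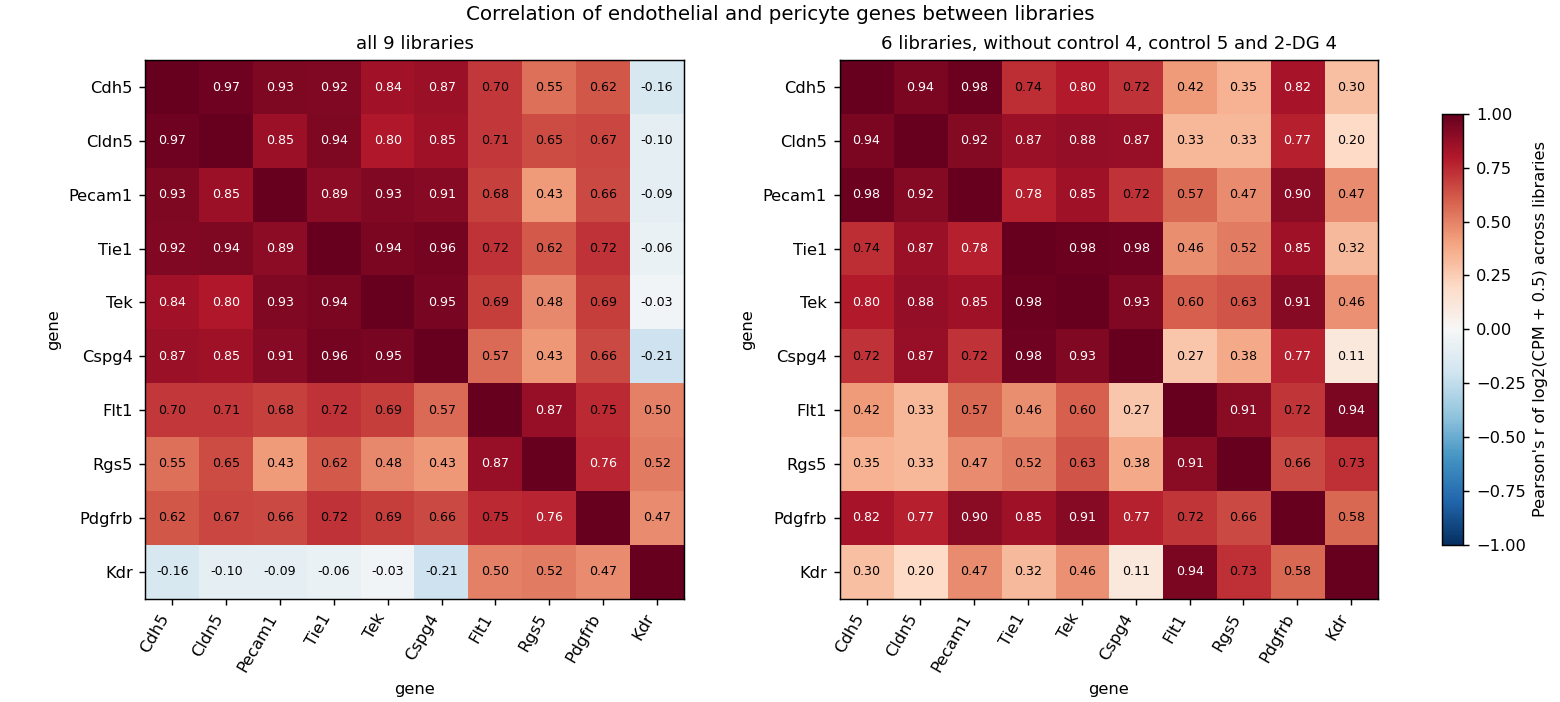
Pearson's r of log2(CPM + 0.5) between the 10 genes over all 9 libraries (left) and over 6 libraries (right). On the left Cdh5, Cldn5, Pecam1, Tie1, Tek and Cspg4 form a block of r from 0.80 to 0.97 and Kdr is near 0 with them, and on the right Kdr is closest to Flt1 at 0.94.

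The spread between libraries of the same group showed the same division. The SD of log2 CPM within groups was 1.56 for Cdh5 and for Cldn5, 1.25 for Tie1, 1.01 for Tek, 0.99 for Pecam1 and 0.80 for Cspg4. It was 0.60 for Pdgfrb, 0.59 for Flt1, 0.57 for Kdr and 0.53 for Rgs5, below the median of 0.62 over all genes tested. A larger spread than that of Cdh5 was found in 4.29% of genes. The 3 highest values lay in control 4, control 5 and 2-DG 4 for Cdh5, Cldn5 and Tie1, 3 of the 10 genes, as they did for 8.80% of all genes tested.

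Promoter letters are shown for 3 of the genes that moved together (Cldn5, Tie1 and Tek), for Kdr, which did not move with them, and for Flt1, the other VEGF receptor gene. The windows are the 250 bases before the transcript start in RefSeq (GRCm38.p6), written 5′ to 3′ along the gene. RefSeq windows were matched for 7 of the 10 genes, not for Cdh5, Pecam1 and Pdgfrb. Capitals mark some forms of the binding sites for ETS factors, which act in endothelial genes (only CAGGAA or CCGGAA, either strand). They also mark the core of sites for hypoxia-inducible factors (ACGTG or GCGTG, either strand). The ETS core GGAA after other letters, present in the windows of Flt1 and Tie1 among others, was not searched or marked.
Cldn5 (chr16:18776597-18776846, plus strand): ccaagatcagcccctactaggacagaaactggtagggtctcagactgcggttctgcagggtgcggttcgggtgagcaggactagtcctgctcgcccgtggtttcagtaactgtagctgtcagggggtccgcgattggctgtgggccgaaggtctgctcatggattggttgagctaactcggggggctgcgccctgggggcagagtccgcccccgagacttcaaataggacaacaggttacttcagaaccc
Tie1 (chr4:118489850-118490099, minus strand): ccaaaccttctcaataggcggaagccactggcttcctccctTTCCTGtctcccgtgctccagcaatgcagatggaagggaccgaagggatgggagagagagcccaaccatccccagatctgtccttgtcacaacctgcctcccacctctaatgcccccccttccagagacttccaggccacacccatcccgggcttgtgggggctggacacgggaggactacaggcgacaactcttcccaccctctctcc
Tek (chr4:94739039-94739288, plus strand): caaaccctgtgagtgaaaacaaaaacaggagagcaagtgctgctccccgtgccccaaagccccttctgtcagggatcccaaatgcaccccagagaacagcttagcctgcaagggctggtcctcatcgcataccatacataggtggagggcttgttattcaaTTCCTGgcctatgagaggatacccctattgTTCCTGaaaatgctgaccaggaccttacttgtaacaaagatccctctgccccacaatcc
Kdr (chr5:75978456-75978705, minus strand): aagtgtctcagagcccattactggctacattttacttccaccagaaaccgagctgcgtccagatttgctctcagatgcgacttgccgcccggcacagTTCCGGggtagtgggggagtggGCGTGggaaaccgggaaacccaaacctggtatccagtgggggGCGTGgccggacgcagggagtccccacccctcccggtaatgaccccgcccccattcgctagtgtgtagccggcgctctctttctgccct
Flt1 (chr5:147726012-147726261, minus strand): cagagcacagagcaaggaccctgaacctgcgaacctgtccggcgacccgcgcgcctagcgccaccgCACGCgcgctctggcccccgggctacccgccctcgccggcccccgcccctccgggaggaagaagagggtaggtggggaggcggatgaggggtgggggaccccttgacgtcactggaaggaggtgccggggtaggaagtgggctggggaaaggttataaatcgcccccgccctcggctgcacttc
ETS letters were found once in the window of Tie1, 2 times in that of Tek and once in that of Kdr, and not in those of Cldn5 and Flt1. The windows of Cspg4 and Rgs5, not printed, hold them once each. Most of the Tie1 window, with its ETS letters, lies inside the gene as GENCODE annotates it, since the RefSeq start is farther downstream. Of all 32851 mouse windows of this length, 35.1% hold such letters. Hypoxia letters were found 2 times in the window of Kdr and once in that of Flt1, and in none of the other 3, with 38.6% of all windows holding them. The letters describe these windows, and a missing match says only that the letters are not there.

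In ratios between genes within a library the scaling between libraries cancels, apart from the 0.5 CPM added to each value. Of the 45 log2 ratios, 5 differed between the groups at an unadjusted p under 0.05 by the exact two-sided permutation test on the absolute difference of means, and 0 after adjustment (smallest adjusted p 0.268, smallest p the design allows 0.00794). Of the 5, 4 involved Tek, so they share its values and are not separate results from its higher mean in 2-DG explants. The log2 ratio of Flt1 to Tek was 2.54, 2.02, 2.08, 1.63 and 1.25 in control and 0.46, 1.19, 0.87 and −0.29 in 2-DG libraries. Every 2-DG library lay below every control library, the only 1 of 45 ratios with groups that did not overlap. The ratio was thus singled out by its values. How many ratios between other genes would differ or have such groups was not counted. The means were 1.90 ± 0.49 (SD, n = 5) and 0.56 ± 0.64 (SD, n = 4), at p = 0.0159 by the exact permutation test (adjusted 0.268). The ratio of Tek to Rgs5 averaged −1.46 ± 0.40 (SD, n = 5) in control explants and 0.02 ± 0.98 (SD, n = 4) after 2-DG, with the same exact permutation p and adjusted p.

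At transcript level, 26 of the 35 transcripts of the 10 genes were kept for testing and 0 had a p under 0.05, where 3.45% of all 62900 transcripts tested did. The smallest adjusted p among them was 0.9996. Both forms of Flt1 were well covered, the long transcript Flt1-202 with 30 exons, which encodes the membrane receptor, and the short Flt1-203 with 13 exons, which encodes the secreted form. Their coding sequences are identical over 1972 bases and part at the end of exon 13 of the long form (GRCm38 chromosome 5, minus strand, last shared base 147639225), after which Flt1-203 reads on into the intron for its last 95 coding bases. The last 30 shared bases are shown in lower case and the next 60 coding bases of each form in capitals, since these letters tell the forms apart (GENCODE M21).
Flt1-202: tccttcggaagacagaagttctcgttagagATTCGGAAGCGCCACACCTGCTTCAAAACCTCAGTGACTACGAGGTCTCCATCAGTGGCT
Flt1-203: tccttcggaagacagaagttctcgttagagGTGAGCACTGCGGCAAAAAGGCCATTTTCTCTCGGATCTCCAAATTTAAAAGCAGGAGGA

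The short form took 34.1%, 25.5%, 32.7%, 38.6% and 35.0% of the Flt1 transcript counts in control and 20.8%, 27.2%, 25.9% and 16.9% in 2-DG libraries. Control 2 lay below 2 of the 2-DG libraries, and the other control libraries lay above all of them. Control explants had a mean share of 33.2 ± 4.81% (SD, n = 5) and 2-DG explants one of 22.7 ± 4.75% (SD, n = 4), a difference of −10.5 percentage points (exact permutation p = 0.0317, adjusted p = 0.159 over 10 transcript shares, a family chosen after seeing the values). Each way of leaving out 1 library kept the sign, between −12.4 and −8.58. Without control 4, control 5 and 2-DG 4 it was −6.17. Counts of Flt1-203 and unspliced RNA of Flt1-202 in that intron cannot be told apart in these values, and the division of reads between transcripts is an estimate whose error the counts do not carry. For Pecam1 and Tek, with 4 and 2 transcripts above 10% of the counts, shares differed by at most 6.66 percentage points with all 9 libraries (Pecam1-203, exact permutation adjusted p = 0.423). Without 2-DG 3 the difference was 9.82 for Pecam1-203 and −8.09 for Pecam1-204.

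**Figure D4:**
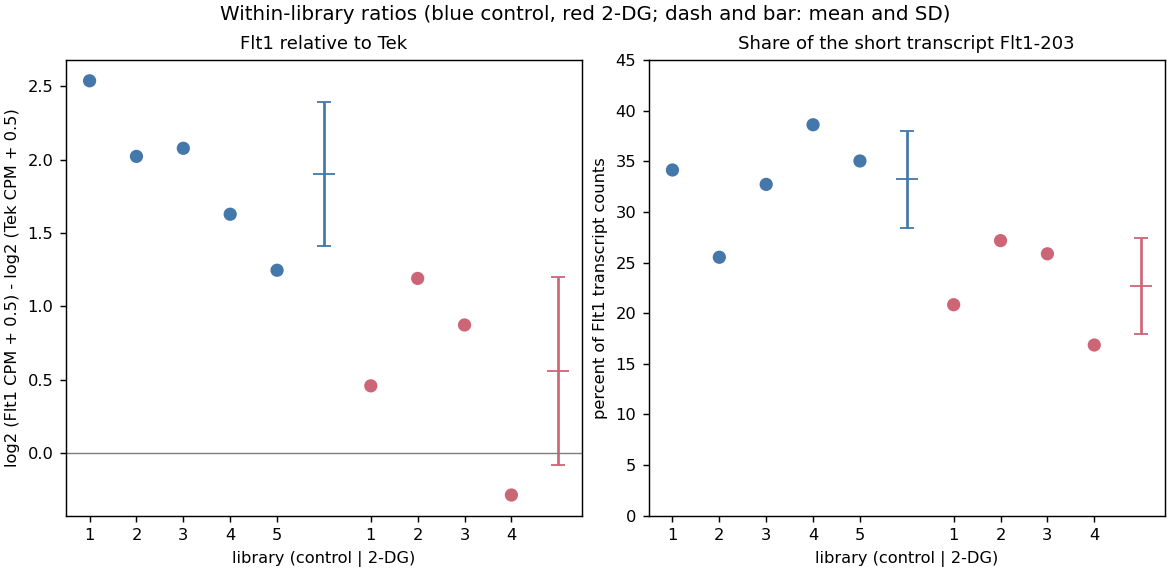
Log2 ratio of Flt1 to Tek (left) and share of the short transcript Flt1-203 in Flt1 transcript counts (right) in each library, with mean and SD at the side of each group. The ratio averages 1.90 in control and 0.56 in 2-DG libraries without overlap. It was singled out among 45 ratios by its values, and it is not separate from the Tek difference. The share averages 33.2% and 22.7% with control 2 in the range of the 2-DG libraries.

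Other vessel genes were set beside the 10. For the counts by direction below, 50.8% of all genes tested were lower in 2-DG. Of 20 other endothelial identity genes, 19 were higher on average in 2-DG explants (median log2 fold change 0.67). At an unadjusted p under 0.05, 3 of them were higher, beside 2.42% of all genes tested, and 0 after adjustment. Their r with Cdh5 ran from −0.52 to 0.98, and genes with a shared course are not separate results. For Sox17, for example, the higher 2-DG mean came from 2-DG 4 (37.8 CPM). The other 2-DG libraries held 4.17 to 6.88 CPM, below the control mean of 11.8 CPM. The sum of the 20 genes was highest in 2-DG 4 (3109 CPM), control 5 (2039 CPM) and 2-DG 3 (1739 CPM), with control 4 at 1133 CPM. Ramp2, the co-receptor subunit for adrenomedullin, was the clearest, at 10.96, 6.66, 21.8, 13.2 and 24.2 CPM in control and 34.3, 26.6, 48.1 and 32.5 CPM in 2-DG libraries. Its groups did not overlap (log2 fold change 1.20, standard error 0.37, adjusted p = 0.536). Mmrn2, an endothelial matrix protein gene, had a log2 fold change of 1.42 (standard error 0.49, adjusted p = 0.597), and Ly6c1, a surface protein of capillary endothelium, 2.43 (0.99, adjusted p = 0.656). Ly6c1 was measured at 1.24 to 30.004 CPM in control and at 56.6, 38.8, 143 and 4.15 CPM in 2-DG libraries, so that its highest value came from 2-DG 3 and 2-DG 4 lay within the control range.

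Among 12 ligand and co-receptor genes, 11 were higher on average (median 0.21) and none had a p under 0.05. Of these 11, Angpt2, Pgf, Vegfb, Pdgfa and Pdgfb exceeded their control mean only in 2-DG 4. Vegfa, the ligand of Kdr and Flt1, measured 153, 127, 158, 190.4 and 95.2 CPM in control and 169.8, 189, 187 and 75.2 CPM in 2-DG libraries, lowest in the 2 libraries with the highest Cdh5. Angpt2, the antagonist ligand of TIE2 made by activated endothelium, was highest in control 4, control 5 and 2-DG 4, at 17.5, 107, 22.9, 429.8 and 815 CPM in control and 25.7, 20.3, 40.1 and 2133 CPM in 2-DG libraries. Its r with Cdh5 was 0.94. The genes of this list named here were chosen after their values were seen.

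The tip cell list holds genes that mark endothelial cells at the front of growing vessels and, beside these, Aplnr, the receptor gene for the product of Apln. Its genes summed to 730 and 1199 CPM in control 4 and 5, to 2822 CPM in 2-DG 4 and to 96.4 to 163 CPM in the other 6 libraries. Most of these 3 sums was Angpt2. The r with Cdh5 was 0.97 for Cxcr4, 0.94 for Angpt2, 0.86 for Pdgfb and 0.83 for Apln, against 0.39 for Unc5b, −0.16 for Aplnr and −0.35 for Esm1, so 4 of the 7 went with Cdh5. In the comparison of the groups 1 of the 7, Aplnr (log2 fold change 2.01, at most 2.21 CPM, adjusted p = 0.618), was higher at p under 0.05, beside 2.42% of all genes tested. Of 11 Notch and BMP genes, 5 were higher and 6 lower (median −0.14), with 1 of the 11 at p under 0.05, beside 7.25% of all genes in either direction. This was Id1, a target of BMP signalling, at 13.9 ± 6.24 CPM (SD, n = 5) against 6.05 ± 3.17 CPM (SD, n = 4) (log2 fold change −1.20, adjusted p = 0.633). Of 15 barrier genes, 12 were higher (median 0.41), and the transporter gene Slco1a4 was the 1 of 15 with an unadjusted p under 0.05 (7.25% of all genes), at 12.8 CPM in 2-DG 3 and at most 1.86 CPM elsewhere.

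Around the vessels, 9 of 12 tested pericyte genes beside the 3 above were higher on average (median 0.44, none with p under 0.05), while 4 of 6 smooth muscle genes were lower (median −0.46, none with p under 0.05). Of 10 perivascular fibroblast and basement membrane genes, 9 were higher (median 0.36), 2 of them at p under 0.05, beside 2.42% of all genes tested. These were Fbln1 (log2 fold change 3.42, adjusted p = 0.524, 55.7 CPM in 2-DG 3) and Col1a2 (1.61, adjusted p = 0.611).

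Markers of other cells were read beside these values. The 4 tested red blood cell genes summed with Alas2 to 4.24 to 26.2 CPM, and the 10 microglia and macrophage genes to 9.58 to 57.6 CPM, with overlapping groups. The highest Kdr value, in 2-DG 3, coincided with the highest sums of several lists: microglia and macrophage genes (57.6 CPM), astrocyte and oligodendrocyte precursor genes (188.5 CPM), smooth muscle genes (159.6 CPM) and pigment epithelium genes (172.9 CPM). The r with Kdr over the 9 libraries was 0.41 to 0.91 for the 10 microglia and macrophage genes and 0.40 to 0.69 for the 8 pigment epithelium genes. It was 0.03 (Rlbp1) to 0.86 (Aqp4) for the 8 Muller glia genes. For the 7 astrocyte and oligodendrocyte precursor genes it was −0.11 to 0.76, beside a median of 0.0045 over all genes tested. In 2-DG 3 Rpe65 reached 6.67 CPM and was at or below 0.315 CPM in the other libraries. Of the 5 pigment epithelium genes tested, 3 were higher in 2-DG explants at an unadjusted p under 0.05, beside 2.42% of all genes, and all 3 were highest in the same library, Ttr at 49.0, Pmel at 62.3 and Slc6a13 at 18.4 CPM. Their part in the Kdr value was not tested. Of 8 Muller glia genes, 4 were lower at an unadjusted p under 0.05 (4.83% of all genes tested) and 1 higher (2.42%), led by Sox9 (127 ± 72.2 against 27.7 ± 10.5 CPM, SD, n = 5 and 4, log2 fold change −2.20, adjusted p = 0.524) and Sox2 (−1.17, adjusted p = 0.526, groups without overlap). All 8 rod genes were lower on average (median −0.61), none with p under 0.05. Of 7 astrocyte and oligodendrocyte precursor genes, 4 were tested, of which 2 were higher and 2 lower on average. Log2 fold changes were 0.73 for Pdgfra, 0.72 for Gfap, −0.48 for Pax2 and −0.72 for Aldh1l1, the last at an unadjusted p under 0.05 (adjusted p = 0.669). Pdgfra and Gfap were highest in 2-DG 3, at 22.1 and 144 CPM. In the other 2-DG libraries Pdgfra lay below its control mean of 4.59 CPM. Of the 9 interneuron and ganglion cell genes none had a p under 0.05 (5 higher, 4 lower).

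**Figure D5:**
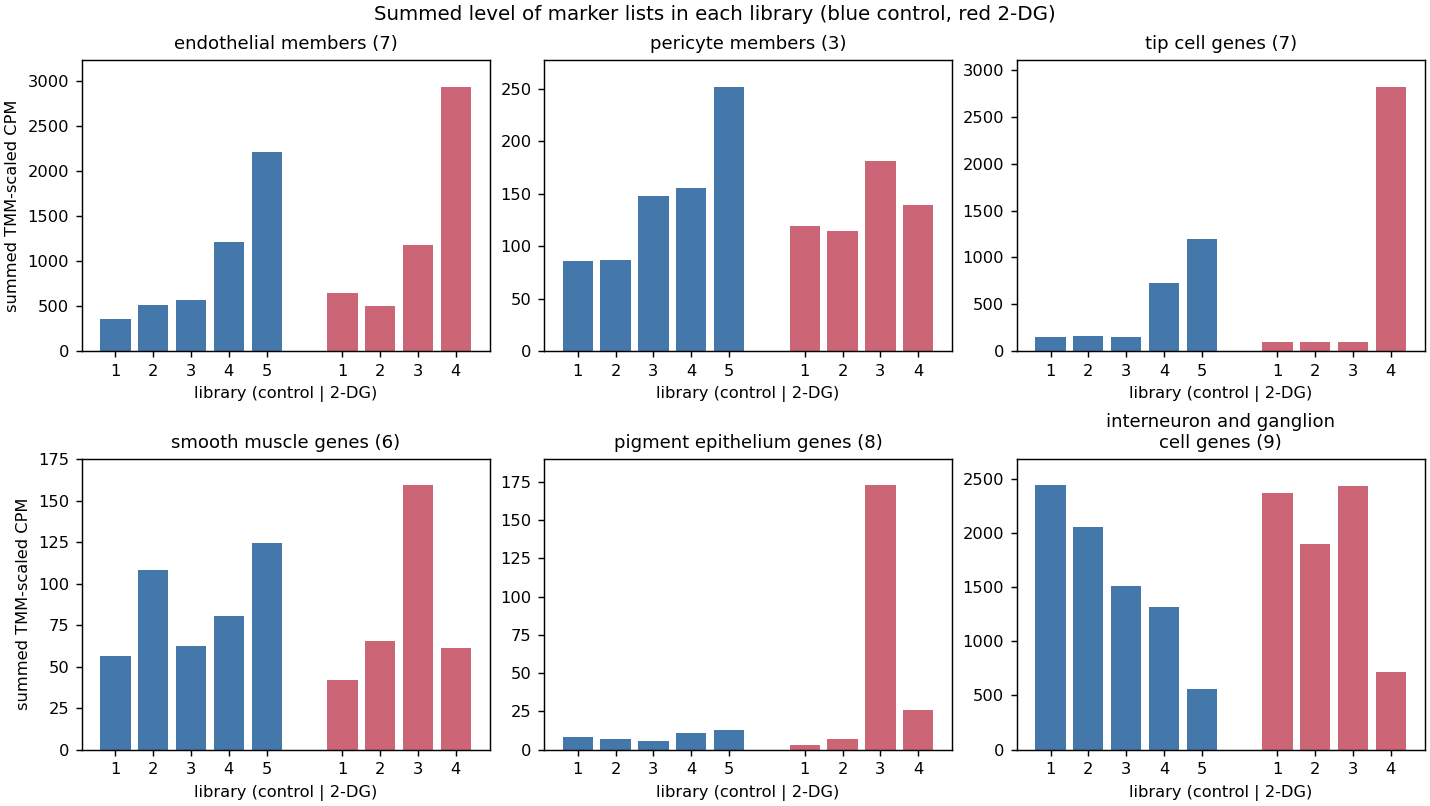
Summed CPM of 6 gene lists in each library (bars from 0, number of genes in brackets, separate scales). The tip cell sum is highest in control 4, control 5 and 2-DG 4, where the interneuron and ganglion cell sum is lowest, the endothelial sum of control 4 (1208 CPM) is close to that of 2-DG 3 (1179.7 CPM), and the pigment epithelium sum stands out in 2-DG 3 at 172.9 CPM.

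Among the protein-coding genes tested, those with the highest r to Cdh5 were Scarf1 (0.996), Gpr4 (0.990), Flt4 (0.990), Abcb1a (0.990) and Fam111a (0.988), over 9 libraries. Flt4 encodes the receptor for VEGF-C, and Abcb1a the efflux pump P-glycoprotein of barrier endothelium. Among all 21048 other genes tested, Cldn5 ranked 41, Pecam1 152 and Kdr 12351. Flt4 measured 12.7 to 75.5 CPM in control and 20.5 to 119.8 CPM in 2-DG libraries (log2 fold change 0.54, adjusted p = 0.859). Those nearest to Rgs5 were Car4 (0.976), Nostrin (0.973), H2-Ab1 (0.946), Ntf3 (0.937) and Jam2 (0.933), of which only Jam2 exceeded 11.7 CPM in any library. Among the set itself Flt1 ranked 45 by its r with Rgs5. These correlations are a description over libraries that differ in depth and in the marker sums of other cells.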

How the data were processed

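RNA was total RNA of explants, made into stranded libraries from 4 ng with 13 PCR cycles and read as pairs of 101 bases. The authors deposited estimated counts per gene and per transcript that were not scaled between libraries, and CPM on a scaled library size for 12568 genes, a rounded or rescaled score here, which held all 10 genes and differed from the CPM computed here by at most 0.15 on the log2 scale. The submitters' processing notes name kallisto and GRCm38, with no version. How gene counts were made from transcripts is not given in the sources used here. A deposited table of the authors' own comparison (fold changes and p-values) was not used. No column lacked a sample (0).

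Counts were rounded, which changed a library's total by at most 0.00377%. Genes kept by filterByExpr were scaled with TMM and tested with edgeR 4.0.16 (R 4.3.3; glmQLFit with legacy=TRUE and robust=FALSE, glmQLFTest, group as the only term) on 9 libraries, adjusted by Benjamini-Hochberg over 21049 genes or 62900 transcripts. The standard error is the absolute log2 fold change over the square root of F. CPM use the TMM-scaled library size. Ratios and correlations use log2(CPM + 0.5), exact two-sided permutation tests (126 assignments, or 362880 pairings of 9 libraries) and adjustment over 45 pairs. Scripts were tested on simulated data. Gene coordinates and exon lengths are from GENCODE M21.

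The members and lists were chosen with earlier results of these data known. A gene of the interneuron list is not reported here and was left out of its sums and counts. Named by rule beside the 10 genes were, of each list, up to 3 genes with the smallest p, the 5 protein-coding genes most correlated with Cdh5 and with Rgs5, and transcripts with at least 10% of their gene's transcript counts. Other list genes in the text are outside this rule and were named after their values were seen. Among them are Sox17, Vegfa, Angpt2, Apln, Pdgfb, Unc5b, Rpe65, Snap25, Rbpms, Olig1, Olig2, Sox10, Pax2, Rlbp1 and Aqp4. Alternatives were DESeq2 1.42.0, limma 3.58.1 (voom with quality weights), sva 3.50.0 with 2 surrogate variables, other scalings, no filter, a pseudocount of 2 CPM, a replicate block and leaving out libraries. Leaving out control 4, control 5 and 2-DG 4 together, and the transcript shares, were added after seeing the data.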

Additional observations from a re-analysis of the deposited data

Results flagged for a closer look

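In 3 of 40 groups of values (each gene's CPM and other per-library values within a treatment) the extreme library lay farther from its neighbours than Dixon's 95% critical value, where chance gives about 1 in 20. Cdh5 was 1346 CPM in 2-DG 4 and 119 to 280.1 CPM in the other 3 2-DG libraries. Cldn5 was 327 CPM in the same library and 55.9 to 97.6 CPM in the others. Kdr was 174 CPM in 2-DG 3 and 50.2 to 65.5 CPM in the others, the lowest of them 2-DG 4.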

How the results depend on the processing

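Of the 10 genes, the number past an adjusted p of 0.05 was 0 under each alternative other than the 2 surrogate variables, where it was 2. The number at an unadjusted p under 0.05 was 0 with upper-quartile scaling, 4 with 2 surrogate variables (beside 19.8% of all genes tested), 4 without control 4, control 5 and 2-DG 4 together (6.87%), and 0 to 3 when 1 library was left out (3 without control 5, beside 5.72% of all genes, and 0 without control 1, 2, 3 or 4 or without 2-DG 4). The number of genes higher in 2-DG was 5 with upper-quartile scaling, with limma-voom and without control 1, control 2, 2-DG 3 or 2-DG 4, 9 with the replicate block and without 2-DG 1 or 2-DG 2, and 10 without control 4, control 5 and 2-DG 4. With the replicate number as a block, 6 genes had an unadjusted p under 0.05 (6.42% of all genes) and 0 an adjusted one. The numbers were not taken to pair the libraries, since the correlations of the deviations of same-numbered libraries from their group means were 0.451, −0.155, 0.102 and 0.205. The block reversed Cldn5 (log2 fold change 0.95), Flt1 (0.13) and Rgs5 (0.024). Other reversals were Cdh5 at −0.46 with limma-voom, Cldn5 at 0.50 and Flt1 at 0.0099 with 2 surrogate variables, Flt1 at 0.00012 with no filter, and Pdgfrb at −0.013 with upper-quartile scaling. Without control 4, control 5 and 2-DG 4, Cldn5 was 0.98, Kdr 0.14, Flt1 0.18 and Rgs5 0.17. The cause was not tested.

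With 1 library left out, the log2 fold change ranged from −0.83 (without 2-DG 4) to 1.23 (without control 5) for Cdh5, from −1.07 to 0.78 for Cldn5 with the same libraries left out, from −0.62 (without 2-DG 3) to 0.13 for Kdr, from −0.26 to 0.16 for Flt1, from −0.059 to 1.35 for Tie1, from −0.14 to 0.42 for Pdgfrb, from −0.42 to −0.03 for Rgs5, from 0.15 to 1.30 for Pecam1, from 0.73 to 1.77 for Tek and from 0.38 to 1.37 for Cspg4, the last 3 each lowest without 2-DG 4 and highest without control 5. Pecam1, Tek and Cspg4 were higher in 2-DG under all 18 alternatives run, but with limma-voom Pecam1 was 0.11, Tek 0.51 and Cspg4 0.58, none at an unadjusted p under 0.05. With limma-voom the 1 gene of the 10 at such a p was Flt1 (−0.58, unadjusted p = 0.0417, adjusted p = 0.175), beside 26% of all genes tested. Correlating pairs numbered 11 to 23 of 45 with 1 library left out (11 without control 1) and 0 without control 4, control 5 and 2-DG 4, where 6 libraries allow only 720 pairings. The number of ratios past an adjusted p of 0.05 was 0 under each alternative run. Without the 3 libraries that count was fixed by the design, since 3 against 3 cannot give a p below 0.1, and 4 against 4 none below 0.0286. Transcripts at an unadjusted p under 0.05 numbered 1 with no filter (4.94% of all transcripts tested), 5 without the 3 libraries (3.60%), and 0 to 6 with 1 library left out (6 without control 5, beside 2.57%). Differences in transcript shares with 1 library left out, in percentage points, ranged from −2.30 to 4.43 for Cspg4-201, −2.27 to 3.73 for Cspg4-204, −5.06 to 0.394 for Pecam1-202, 4.78 to 9.82 for Pecam1-203, −8.09 to −0.717 for Pecam1-204, −1.61 to 3.11 for Pecam1-207 and −0.801 to 5.43 for Tek-203, and without the 3 libraries Pecam1-207 was −3.55 and Tek-203 7.25.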
